A study of Mus musculus with 4 samples.

Results

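A block of 91 genes on the distal part of mouse chromosome 6 was examined, out of 24116 genes in the count table. The members were chosen by position and level, as genes whose start lay from 120 to under 130 Mb of chromosome 6 (GRCm38, the mm10 build) and whose mean count was at least 10 per library. The interval itself was picked from the comparison of genotypes in these same libraries, so the members' differences between genotypes are given as a description without a test. The table held 195 genes of the interval, of which 99 reached the count minimum and 8 of these (Nanog, Dppa3, Gdf3, Apobec1, Slc2a3, Tpi1, Gapdh and Ndufa9) were left out by the rule. The other 96 genes were under the minimum, and 47 of them had no count in any library. They included 21 Clec and 18 Klr genes, the lectin-like receptors of myeloid and natural killer cells that are clustered on this chromosome, and 9 Vmn2r pheromone receptor genes. By biotype, 82 members were protein coding, 7 were long noncoding RNAs, 1 was a microRNA and 1 was a small guide RNA.

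The RNA-seq libraries came from mouse embryonic stem cells (ESCs), the pluripotent cells of the early embryo kept in culture. Third-generation (G3) Terc-/- ESCs, which lack the RNA component of telomerase, were compared with wild-type (WT) ESCs, with 2 libraries of each genotype. Both genotypes were of the C57BL/6 strain and were grown on feeder cells in serum medium with leukemia inhibitory factor, and poly(A) RNA was sequenced. The G3 Terc-/- libraries came from a single line (F35) and the WT libraries from a single line (N12), so genotype and line cannot be told apart, and the spread between the libraries of a genotype may be technical.

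This stretch of chromosome 6 is gene dense and mixes genes of unrelated function. It holds a pluripotency cluster with Nanog (left out here), chromatin regulators such as Phc1, Kdm5a and Chd4, the cell cycle genes Ccnd2, Foxm1, Cdca3 and Ncapd2, the alpha-2-macroglobulin family of protease inhibitors and, towards its distal end, the natural killer receptor genes. Neighbouring genes in mammals usually have their own promoters, and some pairs that point away from each other share a start region.

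Gene counts summed to between 18047995 and 22520017 per library. Terc, the deleted gene, was counted 7 and 2 times in WT and 0 times in either G3 Terc-/- library. A count of 0 allows up to 3 counts per library, so this check of the labels is weak with so few counts in WT. The chi-square per gene between replicates was 2.48 in WT and 3.76 in G3 Terc-/- libraries, above that of counting noise alone. All 10 pluripotency markers were present, 9 of them called higher and Utf1 called lower in G3 Terc-/- libraries (edgeR, adjusted p-value under 0.05). Of all genes tested, 21.7% were called higher and 21.8% lower. The summed level of the pluripotency markers was 4909 and 5002 CPM (counts scaled by library size) in WT and 6810 and 7099 CPM in G3 Terc-/- libraries. Of 12 feeder fibroblast markers, 11 passed the filter on low counts and all 11 had positive log2 fold changes. An adjusted p-value under 0.05 (edgeR, over all genes) was found for 6 of them, beside 21.7% of all genes called higher. The summed level of the feeder markers was 456 and 316 CPM in WT and 656 and 498 CPM in G3 Terc-/- libraries. Lum, the feeder marker that did not pass, had 8 and 7 counts in WT against 4 and 2 in G3 Terc-/- libraries. Vim, which is not specific to fibroblasts, carried most of the difference in the sum. Without Vim the sum was 291 and 183 CPM in WT against 330 and 218 CPM in G3 Terc-/-, so the genotypes overlapped. Both G3 Terc-/- libraries were above both WT libraries for 5 of the 11 markers, beside 35.5% of all genes tested. The part of feeder RNA in the results below was not tested. Of the 11 markers, 10 were higher in replicate 1 than in replicate 2 of both genotypes, with a median log2 ratio of replicate 1 over replicate 2 of 0.66 in WT and 0.47 in G3 Terc-/-, and the same ratio is given beside the members with the largest changes. A change in RNA per cell and a change in the share of cells that carry it cannot be told apart in these bulk libraries.

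The block as a whole was higher in G3 Terc-/- ESCs. The median log2 fold change over the 91 members was 0.54, with the middle of the distribution from 0.31 to 0.81, and 83 members were above 0 while 8 were below. Over the 14896 genes tested, the median was 0.01 and 50.8% were above 0. All 91 members passed the filter on low counts and entered the fit across all genes. An adjusted p-value under 0.05 with a higher level in G3 Terc-/- was found for 65 members, beside 21.7% of all genes tested, and 1 member was lower by the same call, beside 21.8% of all genes. At the study's cutoffs, a fold change of 2 and an unadjusted P value of 0.05, 15 members were higher, beside 4.73% of all genes, and 0 were lower, beside 3.13%. The P values here came from edgeR, whereas the study called its genes with Cufflinks. Both G3 Terc-/- libraries lay above both WT libraries for 75 members, against 35.5% of all genes, and below them for 5 members, against 34.9%. These counts restate the comparison that selected the interval, and nothing more is read from them.

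Most members moved upward by a moderate amount, though sizes varied. The log2 fold change lay from 0.25 to under 1 for 54 members, was 1 or more for 16, lay between -0.25 and 0.25 for 18 and was under -0.25 for 3. The 33 members with a mean of at least 1000 counts had a median of 0.55, with the middle of their values from 0.39 to 0.65. The 34 members from 100 to under 1000 counts had a median of 0.44 and the 24 members under 100 counts a median of 0.72, with a wider middle range from 0.32 to 1.41. Among the latter, Mug1, Slc6a13, Iqsec3, C1s2, Clec2i, Cd4 and Scarna10 reached the count minimum only through G3 Terc-/- libraries. Mir7045 reached it only through WT libraries. The higher median and upper range of this class therefore follow in part from how members were chosen. The 41 members annotated on the plus strand and the 42 on the minus strand had medians of 0.55 and 0.54. Protein coding members had a median of 0.55 and the 9 noncoding members a median of 0.24. The 43 members whose span overlapped another annotated gene had a median of 0.55, and the 48 without an overlap a median of 0.52. For overlapping genes the reads of partners cannot be assigned with certainty, because the strand setting of the counting is not given in the sources used here.

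The difference was present in each pair of libraries. Over the 67 members with a mean of at least 100 counts, G3 Terc-/- replicate 1 had a median log2 ratio of 0.56 over WT replicate 1 and 0.54 over WT replicate 2. G3 Terc-/- replicate 2 had medians of 0.51 and 0.50 over the same libraries. Between replicates of 1 genotype the medians were -0.01 in WT and -0.02 in G3 Terc-/-, with an SD over genes of 0.13 and 0.12. These ratios were computed from CPM with a pseudocount of 0.5. Over all genes tested with as many counts, the SDs were 0.13 and 0.14.

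**Figure D1:**
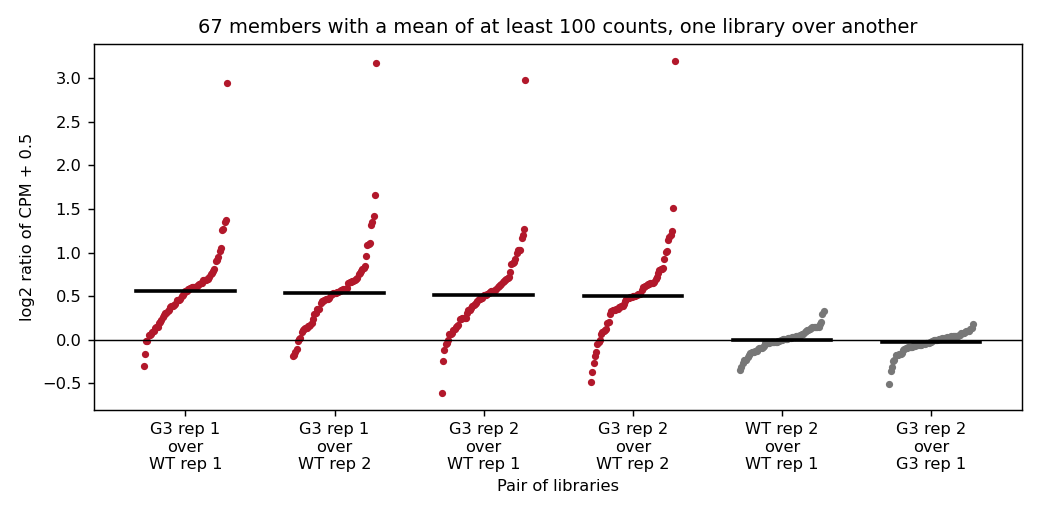
Each point is 1 of the 67 members with a mean of at least 100 counts, on the vertical axis as the log2 ratio of CPM + 0.5 between the pair of libraries named below it, and bars are medians. The 4 ratios of a G3 Terc-/- over a WT library (red) have medians from 0.50 to 0.56, and the ratios within a genotype (grey) have medians of -0.01 and -0.02.

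The members were spread unevenly over the interval, and so were their changes. In the first Mb from the 120 Mb edge, 11 members from B4galnt3 to Mical3 had a median of 0.54 on the log2 scale. From 1 to 2 Mb beyond that edge, 5 members had a median of 1.80 that rested on genes with few counts (Slc6a13, Iqsec3 and Mug1) and on A2m. Slc6a13, Iqsec3 and Mug1 reached the count minimum only through G3 Terc-/- libraries. The 7 members from 2 to 3 Mb had a median of 0.57. No gene reached the minimum from 3 to 4 Mb. The most crowded stretches were 4 to 5 Mb from the edge, with 23 members and a median of 0.63, and 5 to 6 Mb, with 23 members and a median of 0.46. Of the 8 members below 0, 5 lay from 5 to 6 Mb. Farther on the medians were lower, with 0.29 for 2 members from 6 to 7 Mb, 0.39 for 5 from 7 to 8 Mb, 0.34 for 13 from 8 to 9 Mb and -0.07 for 2 from 9 to 10 Mb.

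The proximal edge of the interval at 120 Mb did not coincide with the edge of the raised values. Just inside it were B4galnt3, a glycosyltransferase gene with a log2 fold change of 0.25, and Ccdc77, with 0.54. Just outside it were the DNA repair gene Rad52, with 0.54, and Wnk1, a kinase of ion transport, with 0.78. Wnk1 had 8417 and 8578 counts in WT against 14663 and 12057 in G3 Terc-/- libraries. The 7 genes from 119 to 120 Mb had a median of 0.78 and the 8 from 118 to 119 Mb a median of 0.27, all above 0, whereas the medians were 0.09, -0.01 and -0.02 in the next 3 bins of 1 Mb towards the centromere. At the distal edge, 1700101I11Rik (0.01) and the autophagy gene Gabarapl1 (-0.16) were the last genes inside, 9.53 Mb from the 120 Mb edge. No gene reached the count minimum from 130 to 131 Mb. The nearest genes outside were Magohb (-0.36) and Styk1 (0.93, a gene of few counts), both 11.3 Mb from the 120 Mb edge. Over wider flanks, 100 tested genes from 95 to 120 Mb had a median of 0.07 and 56% above 0, and 76 genes from 130 Mb to the end of the chromosome had a median of 0.12 and 60.5% above 0. The 128 genes from 80 to 95 Mb of the same chromosome had a median of 0.49, near that of the block. At the count minimum, Cd4 (6 and 8 counts in WT, 17 and 10 in G3 Terc-/-) and Scarna10 (6, 10, 17 and 9) were just inside, and Mir7231 (9, 7, 10 and 7) and Clec2d (11, 5, 11 and 8) just outside.

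**Figure D2:**
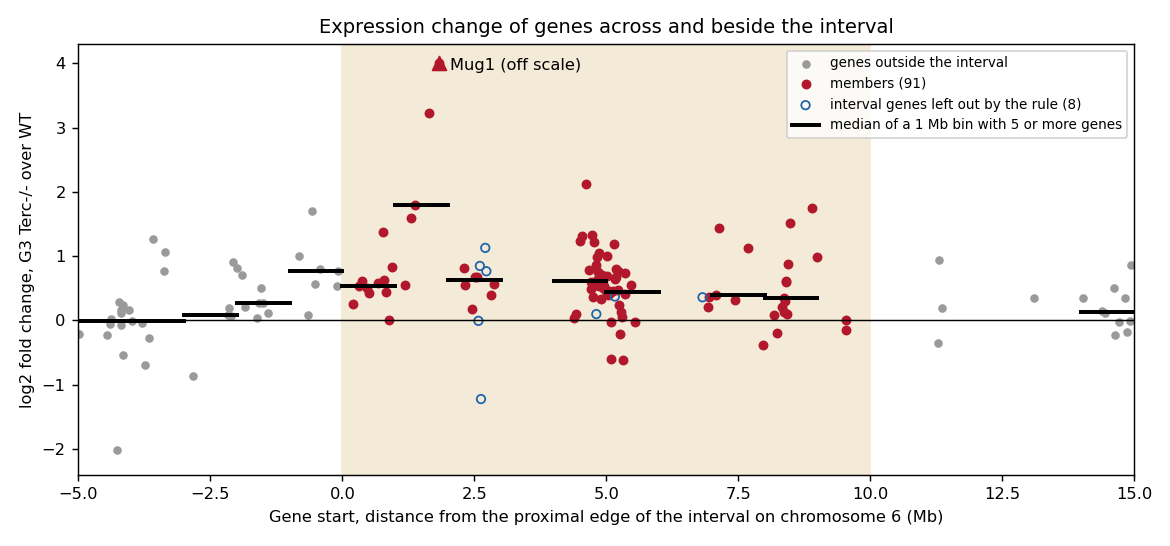
The horizontal axis is the distance of each gene's start from the 120 Mb edge of the interval in Mb and the vertical axis the log2 fold change of G3 Terc-/- over WT, with the interval shaded, members in red, genes left out by the rule as open circles, other genes in grey and bars for medians of 1 Mb bins with 5 or more genes. Medians are -0.02 and -0.01 in the 2 leftmost bins, reach 0.78 in the bin before the interval and lie from 0.34 to 1.80 inside it, and the point of Mug1, which had no count in WT, is drawn at the top of the scale.

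The largest changes of the block were those of Mug1 and A2m, genes of the alpha-2-macroglobulin family. A2m, which encodes a secreted inhibitor that traps proteases, had 93 and 79 counts in WT against 803 and 673 in G3 Terc-/- libraries. Both G3 Terc-/- libraries were far above both WT libraries, with 36.5 ± 0.478 CPM against 3.91 ± 0.492 CPM (SD, n = 2). The log2 fold change was 3.22 ± 0.11 (SE). Mug1 (murinoglobulin 1), a rodent relative of A2m that lies next to it, had 0 counts in each WT library, against 43 and 48 in G3 Terc-/-. Against a floor of 3 counts over the WT group, Mug1 was at least 33.9-fold higher, or at least 5.08 on the log2 scale. Mug1 was named after its values were seen and reached the count minimum only through G3 Terc-/- libraries. Its paralog Mug2 had 0, 1, 0 and 0 counts, and reads of such close paralogs can be lost or misplaced in alignment.

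Pzp, the pregnancy zone protein gene of the same family, lies apart from A2m and Mug1 near the distal end of the block and had 19 and 7 counts in WT against 31 and 37 in G3 Terc-/- libraries. The groups did not overlap, but the log2 fold change of 1.51 ± 0.40 (SE) rested on few counts. It was 2.40 without WT replicate 1 and 0.95, and no longer called, without WT replicate 2. Pzp was also named after its values were seen. The span of Pzp overlaps that of the noncoding gene Gm10069, which had 81 and 90 counts in WT against 150 and 137 in G3 Terc-/- libraries. For A2m, the log2 ratio of replicate 1 over replicate 2 was 0.23 in WT and -0.03 in G3 Terc-/-.

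Start regions are shown for members at the extremes and in the middle of the block, from RefSeq models on GRCm38.p6, running 5′ to 3′ on the strand of the gene from 250 bases before to 50 bases after the annotated start. Mug1 and Pzp are the relatives of A2m in the sequence table, Phc1 is the most abundant member by counts and close to the block's median, Chd4 is an abundant member that was near 0, and Tspan9 is the member called lower. Capitals mark matches on either strand to the TATA box, searched as TATAAA, to the CCAAT box, searched by its name, or to the GC box, searched as GGGCGG, and no match of 1 motif overlapped a match of another in these windows.
Mug1, chr6:121838291-121838590, plus strand: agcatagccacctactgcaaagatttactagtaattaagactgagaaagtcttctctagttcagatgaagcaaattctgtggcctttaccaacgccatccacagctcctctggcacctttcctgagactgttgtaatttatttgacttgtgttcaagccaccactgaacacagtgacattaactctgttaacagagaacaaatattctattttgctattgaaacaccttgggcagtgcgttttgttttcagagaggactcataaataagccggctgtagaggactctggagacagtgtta
Pzp, chr6:128526671-128526970, minus strand: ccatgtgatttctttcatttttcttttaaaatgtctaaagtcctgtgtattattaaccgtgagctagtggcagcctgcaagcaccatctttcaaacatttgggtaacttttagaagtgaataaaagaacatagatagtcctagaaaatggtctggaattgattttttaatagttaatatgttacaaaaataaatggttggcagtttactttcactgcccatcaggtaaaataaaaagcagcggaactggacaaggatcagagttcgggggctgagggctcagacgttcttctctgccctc
Phc1, chr6:122340178-122340477, minus strand: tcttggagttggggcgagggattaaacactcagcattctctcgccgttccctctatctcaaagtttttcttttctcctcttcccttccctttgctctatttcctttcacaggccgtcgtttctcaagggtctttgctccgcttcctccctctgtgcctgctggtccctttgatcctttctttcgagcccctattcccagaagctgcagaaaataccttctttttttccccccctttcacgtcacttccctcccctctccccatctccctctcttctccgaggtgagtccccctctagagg
Chd4, chr6:125095731-125096030, plus strand: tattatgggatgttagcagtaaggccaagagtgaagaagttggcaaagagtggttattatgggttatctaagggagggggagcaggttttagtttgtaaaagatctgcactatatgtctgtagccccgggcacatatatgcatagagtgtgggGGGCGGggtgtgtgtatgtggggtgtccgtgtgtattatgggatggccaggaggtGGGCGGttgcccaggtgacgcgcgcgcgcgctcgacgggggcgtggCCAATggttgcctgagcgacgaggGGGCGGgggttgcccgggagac
Tspan9, chr6:128143529-128143828, minus strand: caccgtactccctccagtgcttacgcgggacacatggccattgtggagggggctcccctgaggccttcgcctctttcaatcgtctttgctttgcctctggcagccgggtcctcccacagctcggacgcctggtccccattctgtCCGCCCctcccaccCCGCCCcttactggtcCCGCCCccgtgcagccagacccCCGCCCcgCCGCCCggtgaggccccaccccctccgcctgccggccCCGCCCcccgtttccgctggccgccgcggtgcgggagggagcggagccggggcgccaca
The windows of Mug1, Pzp and Phc1 held none of the 3 motifs, that of Chd4 held GC boxes and a CCAAT box, and that of Tspan9 held GC boxes. The number of CpG dinucleotides was 3 for Mug1, 4 for Pzp, 9 for Phc1, 17 for Chd4 and 28 for Tspan9. The table placed the start of Mug1 45 bases inside the gene's span. A match is a description of letters and not evidence of a bound factor.

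Over the block, 65 of the 91 members had such a window. A GC box was found in 60.0% of them and in 35.9% of all 27025 windows of the table, a CCAAT box in 27.7% and 38.0%, and a TATA box in 9.23% and 14.2%. The median number of CpG dinucleotides was 16 in members and 7 in all windows, which include genes that are not expressed in ESCs. Within the block, the 46 members with at least 10 CpG had a median change of 0.50 (log2) and the 19 with fewer a median of 0.55. The middle of the distribution reached up to 0.70 in the former and 1.35 in the latter. The latter include Mug1, C1s2 and Clec2i, and the former Slc6a13 and Iqsec3, which reached the count minimum only through G3 Terc-/- libraries. The median log2 fold change was 0.50 with a GC box and 0.55 without one, 0.38 with a CCAAT box and 0.54 without one, and 0.59 for the 6 members with a TATA box and 0.50 for the others.

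Chromatin and transcription genes formed the largest role group, with 13 members and a median log2 fold change of 0.51. By the adjusted p-value over all genes, 10 were higher and 0 lower, beside 21.7% and 21.8% of all genes tested, and these shares are the background of the call counts of each list below. Phc1, a subunit of Polycomb repressive complex 1, had 17079 and 17281 counts in WT against 25919 and 20434 in G3 Terc-/- libraries. In CPM both G3 Terc-/- libraries were above both WT libraries, at 1144 ± 34.5 against 781 ± 1.92 (SD, n = 2), and the log2 fold change was 0.55 ± 0.05 (SE). Chd4, the helicase of the NuRD complex, had 15158 counts in each WT library, against 15204 and 12256 in G3 Terc-/-. Its groups overlapped, at 689 ± 7.42 CPM in WT and 679 ± 9.81 CPM in G3 Terc-/- (SD, n = 2), and its log2 fold change was -0.02 ± 0.05 (SE). The microRNA gene Mir7045 lies within Chd4 and cannot be separated from it by these counts.

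Cecr2, a bromodomain protein of a chromatin remodelling complex, had 2468 and 2626 counts in WT against 3810 and 3222 in G3 Terc-/- libraries, with a log2 fold change of 0.59. Mlf2 had 5918 and 5907 against 8610 and 6866 counts and a log2 fold change of 0.51. In CPM neither gene overlapped between the groups. Tead4, the transcription factor of the Hippo pathway that is needed for trophectoderm, had 638 and 709 counts in WT against 641 and 448 in G3 Terc-/- libraries. Its log2 fold change of -0.19 ± 0.09 (SE) was the lowest of the group, both G3 Terc-/- libraries were just below both WT libraries in CPM, and the difference was not called by the adjusted p-value. It was called lower without a filter, with a replicate block and without G3 Terc-/- replicate 1, where it was -0.32, and it was -0.08 without G3 Terc-/- replicate 2 and -0.13 without WT replicate 2.

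Cell cycle and DNA repair genes gave 8 members, with a median of 0.37, of which 7 were called higher, beside 21.7% of all genes, and 0 lower, beside 21.8%. Ccnd2 (cyclin D2), which drives entry into the cell cycle, had 899 and 732 counts in WT against 2338 and 1737 in G3 Terc-/- libraries. All counts in G3 Terc-/- libraries were above those in WT, at 100.3 ± 7.23 CPM against 37.1 ± 5.77 CPM (SD, n = 2), with a log2 fold change of 1.44 ± 0.08 (SE). Its log2 ratio of replicate 1 over replicate 2 was 0.31 in WT and 0.15 in G3 Terc-/-, in the direction of the feeder markers. Ncapd2, a subunit of condensin I, which compacts mitotic chromosomes, had 10847 and 11158 counts in WT against 17737 and 14017 in G3 Terc-/- libraries, and a log2 fold change of 0.65. Cdca3, a mitotic gene, had 2317 and 2343 against 4570 and 3869 counts and a log2 fold change of 0.98. The values of both genes were apart between the genotypes in CPM. Smaller values were measured for Foxm1, a transcription factor of the G2 and M phases (0.34), and Tigar, a regulator of glycolysis that also stands in the metabolic list (0.39). Rad52 is in the same list but lies outside the interval.

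The protein turnover list held 6 members, 5 called higher and 0 lower (21.7% and 21.8% of all genes), with a median of 0.75 that includes A2m and Pzp. Usp5, an enzyme that takes apart unanchored ubiquitin chains, had 3869 and 3832 counts in WT against 6111 and 4842 in G3 Terc-/- libraries and a log2 fold change of 0.63. Cops7a, a subunit of the COP9 signalosome, had 4300 and 4486 against 6632 and 5144 counts and a log2 fold change of 0.54. Fkbp4, an HSP90 cochaperone, was the exception, with 18746 and 19198 counts in WT against 20872 and 16552 in G3 Terc-/- libraries. Its CPM values did not overlap, at 862 ± 5.24 and 924 ± 24.1 (SD, n = 2), and its log2 fold change of 0.10 ± 0.05 (SE) was small.

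Genes of peroxisomes, mitochondria and metabolism gave 11 members with a median of 0.50, of which 10 were called higher and 0 lower, against 21.7% and 21.8% of all genes. Phb2 (prohibitin 2), a scaffold of the inner mitochondrial membrane, had 7527 and 7706 counts in WT against 10523 and 9159 in G3 Terc-/- libraries, and a log2 fold change of 0.50 ± 0.05 (SE). Atp6v1e1, a subunit of the vacuolar proton pump, and Lpcat3, a phospholipid acyltransferase, had log2 fold changes of 0.64 and 0.79. Both were above WT in each G3 Terc-/- library. The peroxisomal import receptor gene Pex5 had 1533 and 1530 counts in WT against 1651 and 1252 in G3 Terc-/- libraries, with overlapping CPM values and a log2 fold change of 0.04. Its partner gene Pex26, the anchor of the import complex at the peroxisome, had a log2 fold change of 0.55. Eno2, an enolase isoform best known from neurons, had 71 and 58 counts in WT against 161 and 117 in G3 Terc-/- libraries and a log2 fold change of 1.22 ± 0.19 (SE), with replicate 1 over replicate 2 at 0.27 and 0.17 (log2).

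The 3 ribosome genes were all called higher (21.7% of all genes), with a median of 0.61. They were Emg1 (0.61) and Nop2 (0.46), which modify ribosomal RNA, and Mrpl51 (0.68), a protein of the mitochondrial ribosome.

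The list of membrane traffic, cytoskeleton and tetraspanin genes gave 9 members with a median of 0.74, of which 7 were called higher and 1 lower, against 21.7% and 21.8% of all genes. Tspan9, a tetraspanin, was the only member of the block called lower, with 1303 and 1211 counts in WT against 1072 and 709 in G3 Terc-/- libraries. Both G3 Terc-/- libraries were below both WT libraries, at 43.6 ± 6.70 CPM against 57.1 ± 3.57 CPM (SD, n = 2), and the log2 fold change was -0.38 ± 0.08 (SE). Its size depended on G3 Terc-/- replicate 2, and without that library it was -0.24. Cd9, another tetraspanin, went the other way, with 4259 and 4066 counts in WT against 5944 and 5234 in G3 Terc-/- libraries and a log2 fold change of 0.55 ± 0.05 (SE). Mical3, which acts on actin and vesicle docking, and Necap1, an endocytic adaptor, had log2 fold changes of 0.84 and 0.57. Iffo1, an intermediate filament family gene, had 155 and 176 counts against 391 and 302 and a log2 fold change of 1.19 ± 0.12 (SE), with replicate 1 over replicate 2 at -0.15 in WT and 0.09 in G3 Terc-/- (log2).

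Of 7 channel and transporter genes listed, 2 were members. Scnn1a, a subunit of the epithelial sodium channel, had 68 and 58 counts in WT against 45 and 31 in G3 Terc-/- libraries. Its log2 fold change of -0.61 ± 0.26 (SE) was the lowest of the block and was not called, although the groups did not overlap. It was called lower with DESeq2's size factors, without a filter and with a replicate block. Slc6a13, a GABA transporter, had 5 and 7 counts against 21 and 13. Of 10 listed genes of kinases, G proteins, growth factors and related signalling, 3 were members and all 3 were called higher (21.7% of all genes). Wnk1, in the same list, starts outside the interval, and the other 6 were under the count minimum. The 3 members were the orphan receptor gene Gpr162 (0.54, or 0.36 without WT replicate 2), Itfg2 (0.62) and Prmt8, an arginine methyltransferase. Prmt8 had 117 and 104 counts in WT against 233 and 209 in G3 Terc-/- libraries and a log2 fold change of 1.12 ± 0.15 (SE). Its log2 ratio of replicate 1 over replicate 2 was 0.17 in WT and -0.12 in G3 Terc-/-.

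The immune, complement and blood list had 31 genes, of which 11 were members, and these had a median of 1.05 with 6 called higher and 0 lower, against 21.7% and 21.8% of all genes. This median was the value of Cd4, which had 6 and 8 counts in WT and was not called. Cd4, C1s2 and Clec2i (4 and 10 counts in WT, 24 and 20 in G3 Terc-/-) reached the count minimum only through G3 Terc-/- libraries. The list's higher median therefore follows in part from how members were chosen. Ptpn6 (SHP-1), a tyrosine phosphatase of blood cells and epithelia, had the most counts, with 480 and 495 in WT against 1282 and 980 in G3 Terc-/- libraries. Both G3 Terc-/- libraries were above both WT libraries, at 55.8 ± 2.90 CPM against 22.2 ± 0.243 CPM (SD, n = 2), and the log2 fold change was 1.33 ± 0.08 (SE). C1s1, which encodes a protease of the first complement component, had 119 and 108 counts in WT against 307 and 212 in G3 Terc-/- libraries and a log2 fold change of 1.31 ± 0.14 (SE). Its neighbours C1rl (1.24) and C1s2 (2.12, with 7, 10, 40 and 29 counts), named after their values were seen, were also higher, and C1s1 and C1s2 are close paralogs whose reads can be exchanged. Il17ra, the interleukin 17 receptor, had a log2 fold change of 0.50.

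Vwf, the von Willebrand factor gene of endothelium and platelets, had 5.91 and 7.58 CPM in WT against 6.99 and 6.19 CPM in G3 Terc-/- libraries, with overlapping groups and a log2 fold change of -0.03. Blood cell markers did not all move alike. For the 9 blood markers found, the summed level was 6.66 and 4.0 CPM in WT and 10.7 and 11.7 CPM in G3 Terc-/-. Of the 9, 6 had a mean under 10 counts, and none was at 0 in all libraries. The filter was passed by 4, of which 3 had positive log2 fold changes and 2 were called higher, beside 21.7% of all genes. Those called were Lyz2 (84 and 31 counts in WT, 152 and 124 in G3 Terc-/-) and Cd3e (21, 13, 43 and 38). Itgam had 19, 26, 14 and 25 counts, and Fcer1g 9, 10, 8 and 7. The general blood cell marker Ptprc had 5 and 3 counts in WT against 2 and 3 in G3 Terc-/- libraries. C1s1 is also made by fibroblasts. Its log2 ratio of replicate 1 over replicate 2 was 0.15 in WT and 0.24 in G3 Terc-/- libraries, and that of Ptpn6 was -0.02 and 0.11. P3h3, a collagen prolyl hydroxylase gene in no list above, had ratios of 0.35 and 0.51, near those of the feeder markers. Its log2 fold change was 0.76. Mfap5, also in no list, had ratios of 0.08 and 0.02 and a log2 fold change of 0.67. Both P3h3 and Mfap5 were named after their values were seen.

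Genes of cell death and tumour necrosis factor receptors gave 4 members, with a median of 0.23, of which 2 were called higher and 0 lower, against 21.7% and 21.8% of all genes. Bcl2l13, a mitochondrial BCL2 family protein, had 1717 and 1654 counts in WT against 2286 and 1902 in G3 Terc-/- libraries and a log2 fold change of 0.44. Bid, a BCL2 family gene that promotes apoptosis and is its neighbour, had 1225 and 1275 against 1290 and 1018 counts, with overlapping CPM values and a log2 fold change of 0.01. Tnfrsf1a, the main receptor of tumour necrosis factor, had 0.41 (0.29 and not called without WT replicate 2), and Ltbr, the lymphotoxin beta receptor, 0.05. A further 23 members were in no list and had a median of 0.46.

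**Figure D3:**
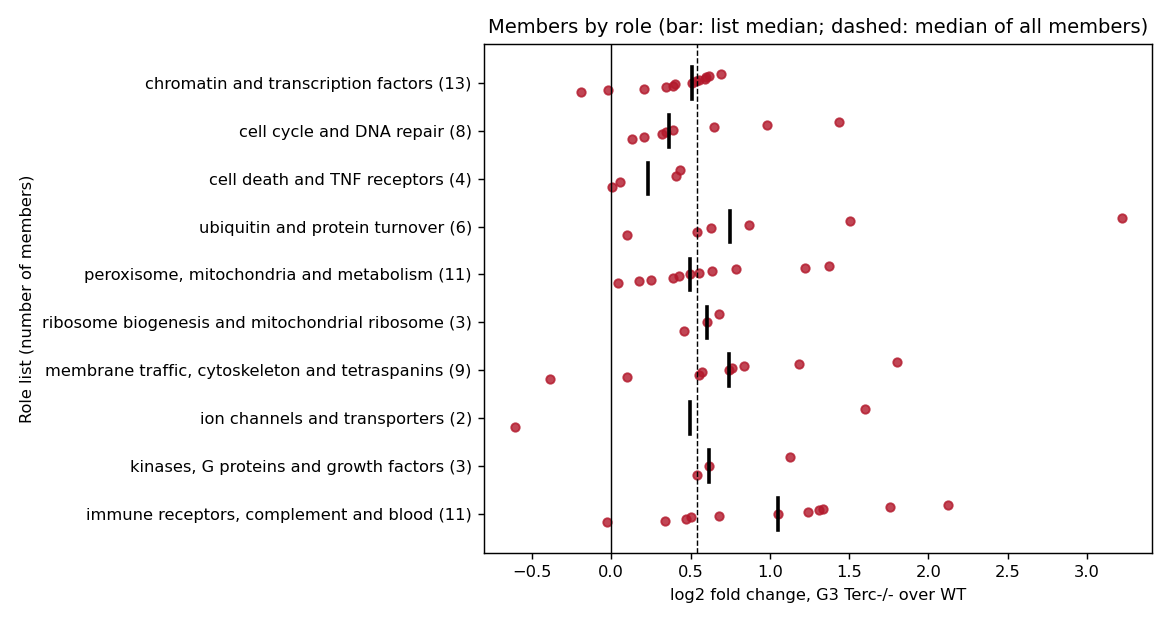
Each point is a member, on the horizontal axis as the log2 fold change of G3 Terc-/- over WT, in rows by role list with the number of members in brackets, where bars are list medians and the dashed line is the median of 0.54 over all 91 members. Most lists have medians from 0.37 to 0.75, and single genes such as Tspan9, Scnn1a and Tead4 lie below 0. The immune and complement list has a median of 1.05, the value of Cd4, which reached the count minimum only through G3 Terc-/- libraries.

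Levels between members were compared per length of exon, as RPKM (CPM divided by the exon length in kilobases), for the 83 members with an exon length. Among the 6 members with the most counts, Fkbp4 had the highest level, with a mean of 308 RPKM in WT and 331 RPKM in G3 Terc-/- libraries. It was followed by Phc1 with 147 and 216 RPKM and by Phb2 with 93.1 and 131 RPKM. Chd4 had 85.9 RPKM in WT, above the 79.8 RPKM of Ncapd2, but in G3 Terc-/- libraries Ncapd2 had 125 RPKM and Chd4 84.6 RPKM. Mlf2 had 65.4 and 93.1 RPKM. The place of Chd4 relative to Ncapd2 and Mlf2 thus turned between the genotypes. These RPKM values are means of 2 libraries and carry the relative spread of the CPM values.

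**Figure D4:**
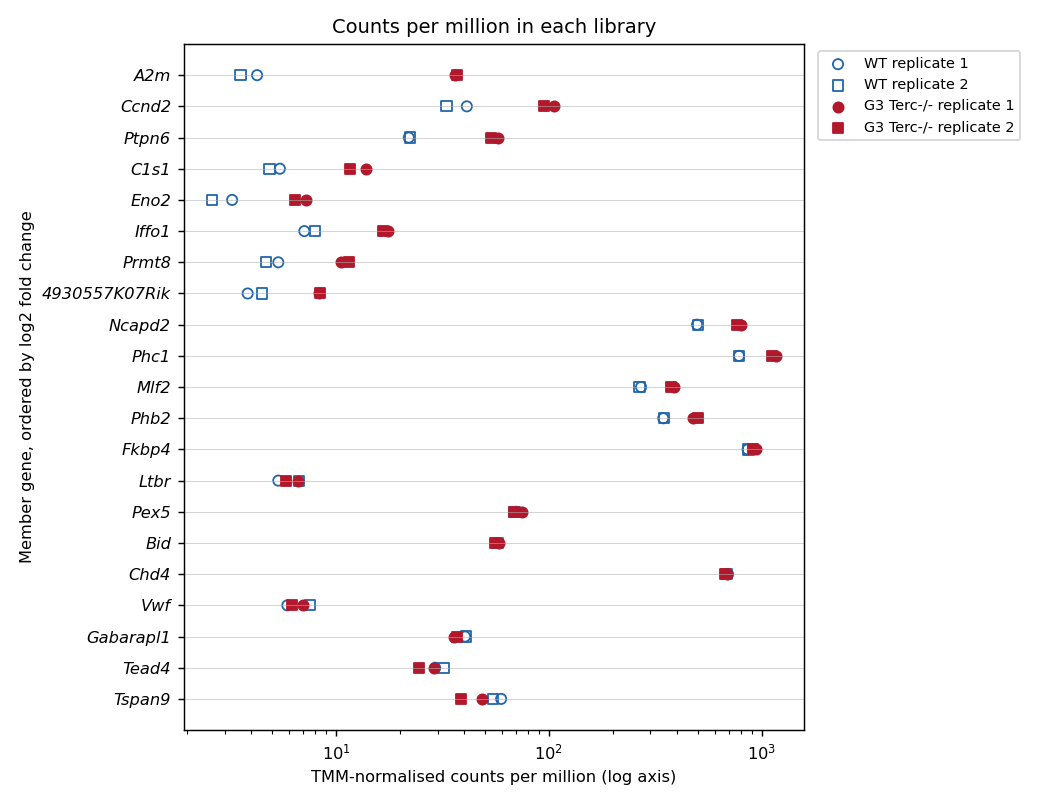
The horizontal axis gives TMM-normalised CPM on a log scale for the 8 members with the highest log2 fold change, the 8 with the lowest (both with a mean of at least 100 counts) and the 6 with the most counts, ordered by log2 fold change, with WT libraries as open blue and G3 Terc-/- libraries as filled red symbols. A2m is farthest apart, near 4 CPM in WT and near 37 CPM in G3 Terc-/- libraries, the symbols of the genotypes overlap for Chd4, Bid, Pex5, Vwf and Ltbr, and Tspan9 lies lower in both G3 Terc-/- libraries.

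Neighbouring genes did not always move alike. In 7 pairs of members, the genes pointed away from each other with starts within 1000 bases. The 2 genes of a pair differed by a median of 0.16 on the log2 scale, and in 6 pairs both genes were above 0. The closest values were those of Ncapd2 and Mrpl51, with 0.65 and 0.68, of Ccdc77 and the histone demethylase gene Kdm5a, with 0.54 and 0.62, and of Emg1 and Phb2, with 0.61 and 0.50. Usp5 and Cdca3, whose starts lie 46 bases apart, had 0.63 and 0.98. Rad51ap1 and D6Wsu163e had 0.21 and 0.37, and Rhno1 and Foxm1 had 0.13 and 0.34. Ltbr and Scnn1a were farthest apart, with 0.05 and -0.61. The long noncoding gene 4930557K07Rik had 84 and 100 counts in WT against 184 and 153 in G3 Terc-/- libraries and a log2 fold change of 1.00, but its span overlaps Zfp384 (0.69) and Ing4 (0.40), so its counts may hold reads of these genes.

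The 8 genes left out by the rule lay among the members and were not uniform. Their log2 fold changes were 1.13 for Nanog, 0.85 for Gdf3, 0.77 for Slc2a3, 0.37 for Gapdh, 0.36 for Ndufa9, 0.10 for Tpi1, -0.01 for Apobec1 and -1.22 for Dppa3. Genomic DNA of these lines was not analysed here.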

How the data were processed

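RNA-seq of 2 WT and 2 G3 Terc-/- ESC libraries was analysed. The authors deposited raw gene counts without normalization, listed by NCBI gene identifiers. The submitters' processing notes name Trim Galore, STAR and featureCounts and the mm10 build, and the strand setting is not given in the sources used here. Symbols and positions came from RefSeq (GRCm38.p6) for 24061 of 24116 identifiers, and exon lengths from GENCODE. Library totals lay between 18047995 and 22520017 counts, and intervals and floors cover counting error only. Deposited counts of transposable element copies were not used here.

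Fold changes were computed across all genes with edgeR 4.0.16 in R 4.3.3 (TMM normalization, filterByExpr, quasi-likelihood test, a model of genotype alone, Benjamini-Hochberg adjustment over 14896 genes). CPM of single genes used TMM-scaled library sizes, and the summed levels of marker lists used library totals without TMM factors. The fit was also run on simulated counts with known changes. The simulation changed far fewer genes than were called here and gave every gene the same spread, so nothing about these data is read from it. Alternatives were DESeq2 1.42.0, its size factors, library totals, TMM factors without chromosome 6, no filter, a replicate block, each library left out in turn, higher count minimums, members without overlaps and a narrower interval. A two-sided exact permutation test of 1 value cannot go below a p of 0.333 with 2 libraries per genotype.

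The members, role lists and named genes were chosen with earlier results of these data known. The text names Terc, the 8 members with the highest and the 8 with the lowest log2 fold change (mean of at least 100 counts), the 6 with the most counts, up to 4 genes with the most counts per list, genes next to the limits of the rule, the genes it left out, and overlapping or divergent neighbours. Genes added after their values were seen were Mug1, Pzp, C1rl, C1s2, Clec2i, P3h3, Mfap5, Pex26 and those listed per 1 Mb bin. Figures were drawn with matplotlib 3.10.9.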

Additional observations from a re-analysis of the deposited data

How the results depend on the processing

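The median log2 fold change of the members, 0.54 as reported, was 0.58 with library totals only, where the median of all genes tested was 0.04, and 0.50 for members with a mean of at least 500 counts. When single libraries were left out, it lay from 0.49 (without G3 Terc-/- replicate 1) to 0.58 (without G3 Terc-/- replicate 2). The number of members called lower, 1 as reported, was 2 with DESeq2's size factors in edgeR and 3 without a filter, and lay from 1 to 2 with a library left out. The number called higher, 65 as reported, was 53 by DESeq2 and lay from 58 to 62 with a library left out. Over all genes, 3238 were higher by edgeR and 2076 by DESeq2. With the replicate block, the median was 0.54, 66 members were higher and 3 were lower in place of 1. The replicate numbers were not taken as pairing the samples, since the labels tie them to no shared culture or day, and the deviations of same-numbered libraries from their group means correlated at 0.11 over 14896 genes. Of 470 values of 47 named genes under the alternatives, 410 moved by less than the spread, 60 moved by more, and 12 changed sign, in 1700101I11Rik, Bid, Chd4, Ltbr, Pex5 and Vwf. Leaving out 1 library moved the log2 fold change of E130112N10Rik by up to 1.74, of Pzp by 0.89 and of Clec2i by 0.77, all genes of few counts. Of the 66 calls of members, 12 were lost with DESeq2 and 6 to 8 with 1 library left out, among them Tnfrsf1a, Gpr162, Slc6a13 and B4galnt3. Depth limits members under 100 counts, whose standard errors are the largest of the block.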
